A study of Mus musculus with 15 samples.

Results

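The Schlafen genes Slfn1, Slfn2, Slfn3, Slfn4, Slfn5 and Slfn8 were followed across resting and activated mouse lymphocytes. They were chosen by symbol: every probe set of the array table annotated to exactly 1 of these 6 symbols was taken. This gave 9 of 45101 probe sets, of which Slfn5 had 3, Slfn1 had 2 and the other members 1 each. The brightest stood for each gene: 1418612_at for Slfn1, 1450165_at for Slfn2, 1421644_at for Slfn3, 1427102_at for Slfn4, 1456288_at for Slfn5 and 1451655_at for Slfn8. The members are 6 of the 18194 genes named on the array. Slfn1, Slfn2, Slfn5 and Slfn8 passed the filter on low values, a highest group mean of at least 5 on the log2 scale, as did 9045 genes in all, and Slfn3 and Slfn4 did not.

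Schlafen proteins take their name from the German word for sleep, because forced expression of the founding members holds back the growth of T cells. They share a core domain that binds and in several members cuts RNA, transfer RNA in particular; the short members Slfn1 and Slfn2 hold little else, the intermediate members Slfn3 and Slfn4 carry an added linker, and the long members Slfn5, Slfn8 and Slfn9 end in a helicase-like domain. Several members are known as targets of type I interferon, and mice with a defective Slfn2 have T cells that lose quiescence and survive poorly.

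The arrays, of the Affymetrix 3' type, measured total RNA from spleen cells of B6x129 mice in 5 groups of 3. Resting B cells were taken at 0 h, and B cells were treated for 4 h with 25 ug/ml of lipopolysaccharide (LPS), a cell wall component of bacteria that engages Toll-like receptor 4. Resting T cells were taken at 0 h, and T cells were treated for 4 h or 14 h with 7.5 ug/ml of concanavalin A (ConA), a lectin that activates T cells through their surface receptors. The series title calls Myc a universal amplifier of expression; the labels name no Myc manipulation for these samples. Cultures without LPS or ConA are not among the 5 groups, so stimulus and time in culture cannot be told apart, and cell type and stimulus cannot be told apart between B and T cells. The labels do not say whether replicates were separate animals or cultures, so p-values measure the spread between these samples, which may be technical. In bulk samples such as these, fewer cells of a type and less RNA per cell cannot be told apart.

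Sequences are shown upstream of Slfn1, Slfn2, Slfn5 and Slfn8 and of the relative Slfn9, with short motifs found in them. The motif marked in both Slfn1 and Slfn2 also occurs upstream of Slfn3 and Slfn4, which are not printed. The windows are the 250 bases before the annotated RefSeq start, on build GRCm38.p6, written 5' to 3' on the strand of the gene, with motif letters in capitals.
Slfn1 promoter, chr11:83116570-83116819, plus strand: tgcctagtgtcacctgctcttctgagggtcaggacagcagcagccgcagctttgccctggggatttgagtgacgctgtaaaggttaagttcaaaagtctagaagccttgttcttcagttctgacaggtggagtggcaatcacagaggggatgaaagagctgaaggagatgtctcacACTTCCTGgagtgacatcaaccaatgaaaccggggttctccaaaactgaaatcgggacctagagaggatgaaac
Slfn2 promoter, chr11:83064862-83065111, plus strand: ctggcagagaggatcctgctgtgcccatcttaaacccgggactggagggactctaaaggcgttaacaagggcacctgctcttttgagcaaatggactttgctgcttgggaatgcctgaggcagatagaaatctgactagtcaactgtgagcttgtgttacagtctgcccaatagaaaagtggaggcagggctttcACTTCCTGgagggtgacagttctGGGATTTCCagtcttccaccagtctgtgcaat
Slfn5 promoter, chr11:82951852-82952101, plus strand: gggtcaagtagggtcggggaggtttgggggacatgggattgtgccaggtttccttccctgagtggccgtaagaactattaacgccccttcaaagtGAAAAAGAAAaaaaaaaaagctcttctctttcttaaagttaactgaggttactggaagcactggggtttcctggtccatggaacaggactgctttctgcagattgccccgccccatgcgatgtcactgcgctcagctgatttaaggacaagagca
Slfn8 promoter, chr11:83020811-83021060, minus strand, upstream of its second annotated start: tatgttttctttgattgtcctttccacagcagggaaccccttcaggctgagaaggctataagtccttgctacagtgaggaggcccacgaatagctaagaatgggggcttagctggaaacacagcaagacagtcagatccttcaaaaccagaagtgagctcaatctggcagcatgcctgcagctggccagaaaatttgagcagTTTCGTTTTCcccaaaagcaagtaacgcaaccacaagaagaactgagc
Slfn9 promoter, chr11:82991831-82992080, minus strand: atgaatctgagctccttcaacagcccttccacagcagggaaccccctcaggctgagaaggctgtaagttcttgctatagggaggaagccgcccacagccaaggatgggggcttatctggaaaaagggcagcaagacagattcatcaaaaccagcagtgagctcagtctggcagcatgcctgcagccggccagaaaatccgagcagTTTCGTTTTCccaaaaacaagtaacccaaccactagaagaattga
In Slfn1 and Slfn2 the capitals ACTTCCTG are an ETS-type site, 74 to 67 and 55 to 48 bases before the start. In Slfn2 the capitals GGGATTTCC match the kappaB motif GGGANTTCC, 32 to 24 bases before the start. In Slfn5 the capitals match the core of the interferon-stimulated response element (ISRE), a repeat of GAAA with any 2 bases between, 155 to 146 bases before the start. In Slfn8 the ISRE core lies on the opposite strand, 136 to 127 bases before the first annotated start and 48 to 39 bases before the second. Slfn9, a long relative whose gene lies between Slfn5 and Slfn8, has the same 10 letters 45 to 36 bases before its start.

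The motifs were searched on both strands and were picked with these sequences in view, so a match is a description. Of 32817 windows of 250 bases, 2.97% held the ISRE core, 2.69% the ETS-type ACTTCCTG and 1.43% the kappaB motif. Slfn3 and Slfn4, which have no sequence printed, also held ACTTCCTG, Slfn3 in 2 places and Slfn4 in 1, and Slfn4 held the AP-1 motif TGANTCA, found in 6.75% of windows. No member held the GAS motif TTCNNNGAA (7.01% of windows) or the E-box CACGTG (6.02%), which says only that these letters are not in this window. On the chromosome the order was Slfn5, Slfn9, Slfn8, Slfn10-ps, Slfn2, Slfn1, Slfn4, Slfn3 and Slfn14. Slfn1 and Slfn2 are thus neighbours, and Slfn9 lies between Slfn5 and Slfn8.

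Values are log2 signals, and the lowest value of the table, 2.24, is a floor at which 42.3% of all values lie (within 0.01); a difference against a group at this floor understates the true one. Arrays of a group correlated at 0.995 to 0.999 over probe sets and arrays of different groups at 0.893 to 0.990. For the dap spike-in RNA, the 3' signal exceeded that at the 5' end by 0.90 to 1.44 on the B arrays and by 1.82 to 2.67 on most T arrays. The excess was larger, 4.59 and 5.94, on 2 T arrays (replicate 2 of the 0 h group and replicate 1 of the 4 h group). The 9 B cell markers summed to a linear signal of 105889 to 110101 in resting B cells, 37065 to 43143 with LPS and 312 to 560 in T cells, and the 11 T cell markers to 41484 to 65349 in T cells and 102 to 134 in B cells. Monocyte and macrophage markers (9 genes) summed to 4692 to 5042 in B cells at 0 h, 2839 to 3364 after LPS and 136 to 457 in T cells. Neutrophil markers (8 genes) summed to 1558 to 1870 in B cells at 0 h, 214 to 244 after LPS, 309 to 375 in T cells at 0 h, 1432 to 2039 at 4 h and 66 to 74 at 14 h. Of these markers Elane, Csf3r and Cxcr2 were near the floor in every group.

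**Figure D1:**
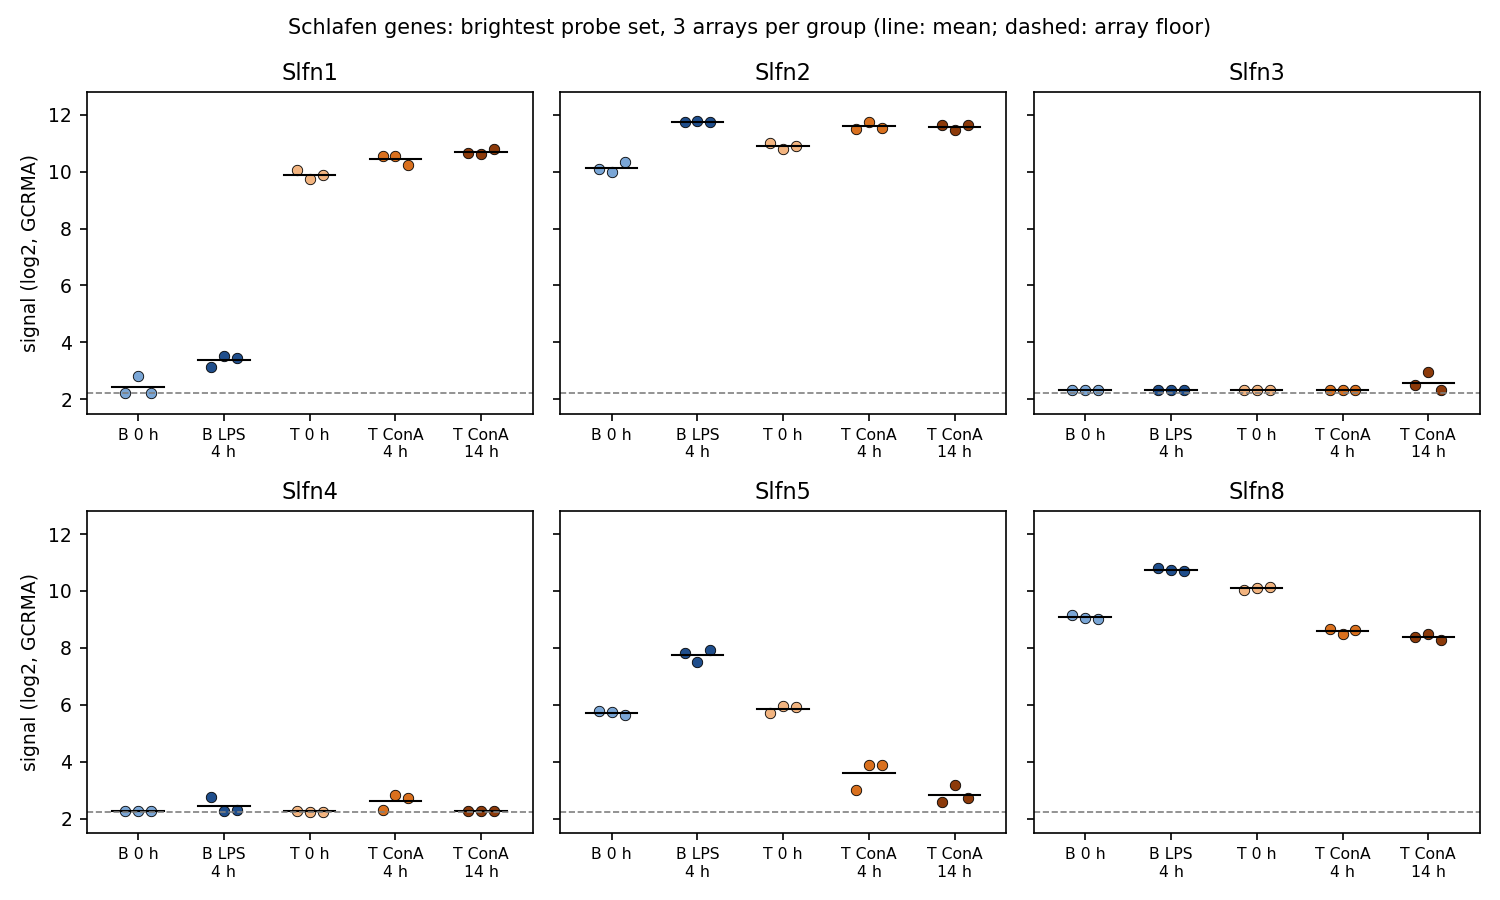
Log2 GCRMA signal (vertical axis) of the brightest probe set of each member in the 5 groups (horizontal axis); points are the 3 arrays of a group, lines their mean, and the dashed line the floor at 2.24. Slfn1 is high in T cells alone, Slfn5 and Slfn8 are highest in LPS-treated B cells and lowest in ConA-treated T cells, and Slfn3 and Slfn4 stay near the floor.

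Slfn1, the short founding member that arrests T cell growth when overexpressed, separated the lineages. Resting B cells had log2 signals of 2.24, 2.83 and 2.24, and LPS-treated B cells of 3.14, 3.54 and 3.45. Resting T cells had 10.05, 9.73 and 9.87, against 10.56, 10.57 and 10.23 after 4 h of ConA, and 10.65, 10.62 and 10.79 after 14 h. No B array came near a T array, and within each lineage no resting array overlapped a stimulated one. At 0 h Slfn1 was lower in B than in T cells by a log2 difference of -7.45 ± 0.16 (SE, limma adjusted p = 2.15e-14), a 175-fold ratio against a B group in which 2 of 3 arrays lay at the floor. At 4 h the difference between LPS-treated B cells and ConA-treated T cells was -7.08 (adjusted p = 4.69e-14).

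With ConA, Slfn1 rose in T cells by 0.57 ± 0.16 at 4 h (adjusted p = 0.0064, 1.48-fold) and stood 0.80 above 0 h at 14 h (adjusted p = 0.000524, 1.74-fold). The rise at 4 h was 0.44 (adjusted p = 0.0795) without the T arrays that had a weak 5' spike-in signal, T 0 h replicate 2 and T ConA 4 h replicate 1. From 4 h to 14 h the difference was 0.23, with a 95% interval of -0.11 to 0.57 (adjusted p = 0.253). In B cells Slfn1 rose by 0.94 ± 0.16 with LPS (adjusted p = 8.71e-05), a change between levels of 2.43 ± 0.34 and 3.37 ± 0.21 (SD, n = 3) near the floor, tested only because the gene is high in T cells. The summed T cell markers were 117 to 127 in resting and 102 to 134 in LPS-treated B cells, with Cd3d, Cd3g, Cd247, Cd8b1 and Thy1 near the floor in both. The order of levels was B 0 h, B LPS 4 h, T 0 h, T ConA 4 h and T ConA 14 h, and only the last neighbours did not differ beyond the test. The second Slfn1 probe set lay at the floor on all 15 arrays, so that averaging both would bring the resting difference between B and T cells to -3.72.

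Slfn2, the short member that guards T cell quiescence and shields transfer RNA from cleavage, was well above the floor everywhere. In B cells its signals were 10.09, 10.002 and 10.33 at 0 h and 11.75, 11.78 and 11.75 after LPS. Resting T cells had 10.996, 10.78 and 10.90, against 11.48, 11.73 and 11.55 at 4 h of ConA and 11.62, 11.46 and 11.64 at 14 h. Each stimulated group lay wholly above its own resting group, and the 3 stimulated groups came within a narrow band.

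Slfn2 rose in B cells by 1.62 ± 0.10 (limma adjusted p = 1.32e-09, 3.06-fold). In T cells it rose by 0.70 at 4 h (adjusted p = 2.09e-05, 1.62-fold) and stood 0.68 above 0 h at 14 h (adjusted p = 2.3e-05, 1.61-fold). At rest it was lower in B than in T cells by -0.75 (adjusted p = 6.67e-06), whereas after 4 h of stimulation B exceeded T cells by 0.17, with a 95% interval of -0.04 to 0.37 (adjusted p = 0.122). This last difference passed the test without T ConA 4 h replicate 2 (0.24, adjusted p = 0.0457) and after cyclic loess normalization (0.35, adjusted p = 0.00473). From the lowest level up the order was B 0 h, T 0 h, T ConA 14 h, T ConA 4 h and B LPS 4 h; the last 2 steps did not pass the test, and the arrays of T ConA 4 h and 14 h overlapped.

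Slfn5, a long nuclear member known as an interferon-induced gene, moved in opposite directions in the 2 lineages. With its brightest probe set, resting B cells had signals of 5.76, 5.74 and 5.64, and LPS-treated ones 7.81, 7.49 and 7.91. Resting T cells had 5.70, 5.94 and 5.92, against 3.02, 3.88 and 3.90 at 4 h of ConA and 2.58, 3.18 and 2.74 at 14 h. Resting B and T arrays overlapped, every LPS array lay above them, and every ConA array lay below them.

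Slfn5 rose in B cells by 2.02 ± 0.21 (limma adjusted p = 7.22e-07, 4.06-fold). In T cells it fell by 2.26 ± 0.21 at 4 h (adjusted p = 5.03e-07, 4.78-fold) and stood lower by -3.02 at 14 h (adjusted p = 2.61e-08, 8.12-fold), where its mean of 2.83 was near the floor. Of the 9045 genes, 0.951% fell at least as far by 14 h. From 4 h to 14 h it fell by a further 0.77 (adjusted p = 0.00884), although T ConA 4 h replicate 1 overlapped the 14 h arrays; both group means, 3.599 and 2.83, are under the filter, so this step was tested only because the gene is higher in other groups. Resting B and T cells differed by -0.14, with a 95% interval of -0.60 to 0.32 (adjusted p = 0.563). The order from the lowest was T ConA 14 h, T ConA 4 h, B 0 h, T 0 h and B LPS 4 h, with B 0 h and T 0 h the neighbours that did not pass the test.

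The other Slfn5 probe sets were dimmer and were also highest after LPS. Probe set 1458458_at read 2.89, 2.26 and 2.58 in resting B cells and 6.11, 6.06 and 5.11 with LPS, a rise of 3.18 (adjusted p = 1.25e-08 over 16771 probe sets, of which 76.3% were called in either direction), while its T cell signals were 2.24 to 2.26, next to the floor. Probe set 1442640_at read 4.70, 4.42 and 3.75 after LPS and 2.70, 3.46 and 3.01 in T cells at 0 h, and was at the floor on the B 0 h arrays and on all ConA arrays; it did not pass the filter. Averaging the 3 probe sets gave smaller T cell changes of -1.02 (4 h) and -1.28 (14 h), as probe sets at the floor cannot fall. For the antisense gene Slfn5os all 15 arrays read the floor.

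**Figure D2:**
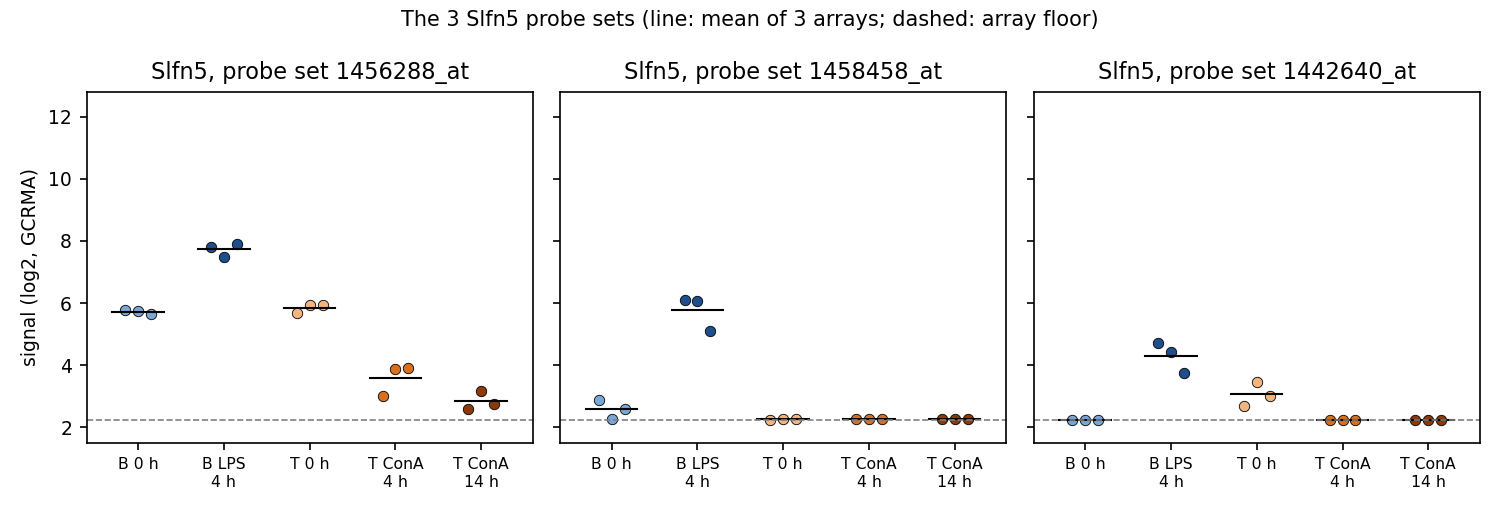
Log2 GCRMA signal (vertical axis) of the 3 Slfn5 probe sets in the 5 groups (horizontal axis), with points for arrays, lines for means of 3 and a dashed line for the floor. All 3 are highest after LPS in B cells; in T cells only the brightest, 1456288_at, and to a lesser extent 1442640_at are above the floor at 0 h, and both are lower after ConA.

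Slfn8, a long member of the type found in immune cells, followed the same course as Slfn5 at levels far from the floor. B cells read 9.15, 9.05 and 9.03 at 0 h and 10.82, 10.73 and 10.69 after LPS. Resting T cells read 10.04, 10.11 and 10.14, against 8.66, 8.49 and 8.62 at 4 h of ConA and 8.39, 8.48 and 8.27 at 14 h. No 2 of the 5 groups overlapped.

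Slfn8 rose in B cells by 1.67 ± 0.07 (limma adjusted p = 5.15e-11, 3.19-fold). In T cells it fell by 1.51 ± 0.07 at 4 h (adjusted p = 6.07e-10, 2.84-fold) and stood lower by -1.71 at 14 h (adjusted p = 1.9e-10, 3.28-fold). From 4 h to 14 h it fell by 0.21 (adjusted p = 0.031). Leaving out T ConA 4 h replicate 1 or 3, or T ConA 14 h replicate 1 or 3, took this last step out of the calls, with values of -0.17, -0.19, -0.21 and -0.15. At rest B cells were below T cells by -1.02 (adjusted p = 1.72e-08), and after stimulation they were above them by 2.16 (adjusted p = 3.72e-12), so the order of the lineages was turned. The order from the lowest was T ConA 14 h, T ConA 4 h, B 0 h, T 0 h and B LPS 4 h, and each step passed the test. The steps that are no comparison of their own, from T ConA 4 h to B 0 h and from T 0 h to B LPS 4 h, were called for 81.2% and 83.1% of all genes.

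The intermediate members Slfn3, which changes during T cell development, and Slfn4, a gene induced in activated macrophages, were not detected above the floor region. Slfn3 read 2.31 to 2.33 on every array but those of T ConA 14 h, where it read 2.49, 2.95 and 2.31. Slfn4 read 2.24 to 2.83 over all 15 arrays, and its highest group mean was 2.62. A further probe set, listed for Slfn4 and Slfn3 together and so outside the choice of members, reached at most 3.04. These values bound the signal of the probe sets and do not show that the transcripts were absent; neither gene was tested.

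Of the relatives outside the member list, Slfn9 and Slfn10-ps were above the filter. Slfn9 read 6.35, 6.91 and 6.29 in resting B cells, 7.25, 7.73 and 6.74 after LPS, 6.20, 6.23 and 6.46 in resting T cells, 6.07, 5.79 and 5.83 at 4 h of ConA and 6.06, 5.79 and 5.81 at 14 h. It rose with LPS by 0.73 (adjusted p = 0.00668), with arrays that overlapped, and its differences in T cells were -0.40 at 4 h (adjusted p = 0.119) and -0.41 at 14 h (adjusted p = 0.106). With only the compared groups in the fit, the LPS change was not called (adjusted p = 0.0638) and the T cell changes were (adjusted p = 0.0221 at 4 h and 0.0158 at 14 h); the 14 h change was also called without B LPS 4 h replicate 2 (adjusted p = 0.0496) or 3 (adjusted p = 0.048). Slfn10-ps, a pseudogene between Slfn8 and Slfn2, read 7.45, 7.52 and 7.95 in resting B cells, 6.71, 6.31 and 6.10 after LPS, 9.72, 9.62 and 9.90 in resting T cells, 7.49, 7.86 and 7.97 at 4 h of ConA and 8.20, 8.71 and 8.07 at 14 h. It fell in both lineages, with changes of -1.26 with LPS (adjusted p = 4.48e-05), -1.97 at 4 h of ConA (adjusted p = 1.03e-06) and -1.42 at 14 h (adjusted p = 2.4e-05). The probe set of Slfnl1 lay at the floor on all arrays. The Schlafen genes are close copies in part, and whether a probe set also reads a neighbour's transcript was not tested.

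In B cells with LPS, the short member Slfn2 and the long members Slfn5 and Slfn8 rose by 1.62, 2.02 and 1.67, and Slfn1 by 0.94 near the floor. Of the 4 members tested, 4 were called higher, against 37.6% of all 9045 genes, with a median change over all genes of -0.05. Slfn1 counts among them only through its level in T cells; with the filter set on the compared groups, 3 of 3 were called higher. Among all genes 6.77% rose at least as far as Slfn5, 9.55% as far as Slfn8 and 10.3% as far as Slfn2. Markers of other cells also moved over this step. Of the 6 monocyte and macrophage markers tested, 5 were called lower, against 42.3% of all genes, with a median change of -3.23. The mean log2 signal of Csf1r went from 9.33 to 2.37 and that of Lyz2 from 10.54 to 6.14, while Mpeg1, at 11.15 and 11.48, held most of the summed signal after LPS. The summed signal went from 1558 to 1870 down to 214 to 244 for neutrophil markers, from 2274 to 2374 down to 710 to 809 for the 4 erythroid markers, from 3586 to 3789 down to 322 to 348 for the 5 stromal and endothelial markers and from 11047 to 11357 down to 2418 to 2549 for the 4 plasma cell markers. The plasma cell markers were also read in T cells, at 4578 to 5117 at 0 h and 3560 to 4083 after 4 h of ConA, above the LPS-treated B cells. Near the floor in both B groups were Cdh5, Col1a1 and Col1a2, so the stromal and endothelial sum rests on Pecam1 and Vcam1. The same held for the neutrophil markers Mpo, Elane, Csf3r and Cxcr2 and the erythroid marker Hba-a1. The summed signal of the 5 dendritic cell markers went up, from 132 to 154 at 0 h to 808 to 1047. Of the 3 dendritic cell markers tested, 2 were called higher and 1 lower. Xcr1 and Siglech were near the floor in both B groups, and Itgax was so after LPS. The part of these cells in the changes of the members was not tested.

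Most interferon-stimulated genes rose with LPS in B cells. Of 30 listed, 26 were tested, of which 24 rose and 2 fell, with a median of 2.53; of all genes, 37.6% were called higher and 42.3% lower, with a median of -0.05. Ifit1, which blocks viral RNA translation, rose by 7.36, Oasl1, an oligoadenylate synthetase-like protein, by 7.33, Usp18, which removes the ubiquitin-like modifier ISG15, by 5.09 and the dynamin-like GTPase gene Mx2 by 4.51. Those that fell were Samd9l (-1.32) and the guanylate-binding protein gene Gbp3 (-0.42). Irf7, the factor that amplifies type I interferon, rose by 3.34 (adjusted p = 2.78e-12), and Irf9, the DNA-binding subunit of the complex that recognises the ISRE, rose by 1.38 (adjusted p = 3.2e-08). Of the 5 interferon transcription factor genes tested, these 2 rose and 2 fell, Irf1 (-0.38) and Irf3 (-0.31); the Irf3 call was lost by its probe set with the largest standard deviation (-0.025). The interferon ligands lay low: Ifnb1 and Ifna2 had mean signals of at most 2.27 in all groups, Ifna1 had 2.31 in resting and 2.98 in LPS-treated B cells, and Ifna4 had 2.24 and 2.90, with 1 LPS array at 4.23. None of these 4 was tested. Of 7 receptor and kinase genes 2 rose and 3 fell, near the shares over all genes.

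In T cells with ConA, Slfn1 and Slfn2 rose and Slfn5 and Slfn8 fell at both times, the rise of Slfn1 at 4 h with the limit given above. At 4 h, 2 of the 4 members tested were called higher, against 33.4% of all genes, and 2 were called lower, against 32.5%. Among all genes 2.71% fell at least as far as Slfn5 and 6.48% as far as Slfn8. At 14 h, 2 were again called higher, against 36.6% of all genes, and 2 lower, against 31.9%. The comparisons of 4 h and 14 h share their 0 h arrays. Among the markers of other cells, neutrophil markers stood at a summed signal of 309 to 375 at 0 h, 1432 to 2039 at 4 h and 66 to 74 at 14 h. Elane, Camp, Csf3r and Cxcr2 were near the floor at all 3 times. Of the 3 neutrophil markers tested, 2 were called higher and 1 lower at 4 h. Erythroid markers stood at 4759 to 5040, 248 to 285 and 159 to 175, with Car1 at mean log2 signals of 12.18, 7.94 and 7.26, Klf1 at 7.94, 3.17 and 2.41 and Hba-a1 and Alas2 near the floor throughout. The 4 NK cell markers stood at 7264 to 7492, 2875 to 3408 and 3351 to 3550, with Ncr1 near the floor. The part of these cells in the changes of the members was not tested.

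The interferon-stimulated genes were divided in T cells. At 4 h, 5 of the 26 rose and 15 fell, with a median of -0.49 against 0.00 for all genes, and at 14 h 6 rose and 15 fell, with a median of -0.74 against 0.03. Of all genes, 33.4% were called higher and 32.5% lower at 4 h, and 36.6% and 31.9% at 14 h. Cmpk2, a mitochondrial nucleotide kinase gene, fell at 4 h with a change of -3.72, the ubiquitin ligase gene Herc6 with -2.36 and Ifit1 with -2.19. Gbp2, a guanylate-binding protein gene, rose by 3.26, Gbp3 by 2.36 and Zbp1, a sensor of Z-form nucleic acid, by 1.20. Ifng, the gene of interferon gamma, rose by 2.59 at 4 h and stood 3.97 above 0 h at 14 h. Irf7 fell by 0.71 at 4 h (adjusted p = 7.51e-05), and Irf1 rose by 0.63 (adjusted p = 5.65e-05).

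Between 4 h and 14 h of ConA each member tested moved less than it had from 0 h to 4 h. For Slfn5, with means of 3.599 at 4 h and 2.83 at 14 h, the floor at 2.24 limited any further fall. Its smaller step therefore says little. Slfn5 and Slfn8, 2 of the 4 tested, were called lower, against 21.5% of all genes, and Slfn1 and Slfn2 were not called. Slfn5 is counted here only through its levels in other groups; with the filter set on the compared groups, 1 of 3 members was called, Slfn8. With only the 4 h and 14 h arrays in the fit, neither Slfn5 (adjusted p = 0.082) nor Slfn8 (adjusted p = 0.075) passed the test.

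**Figure D3:**
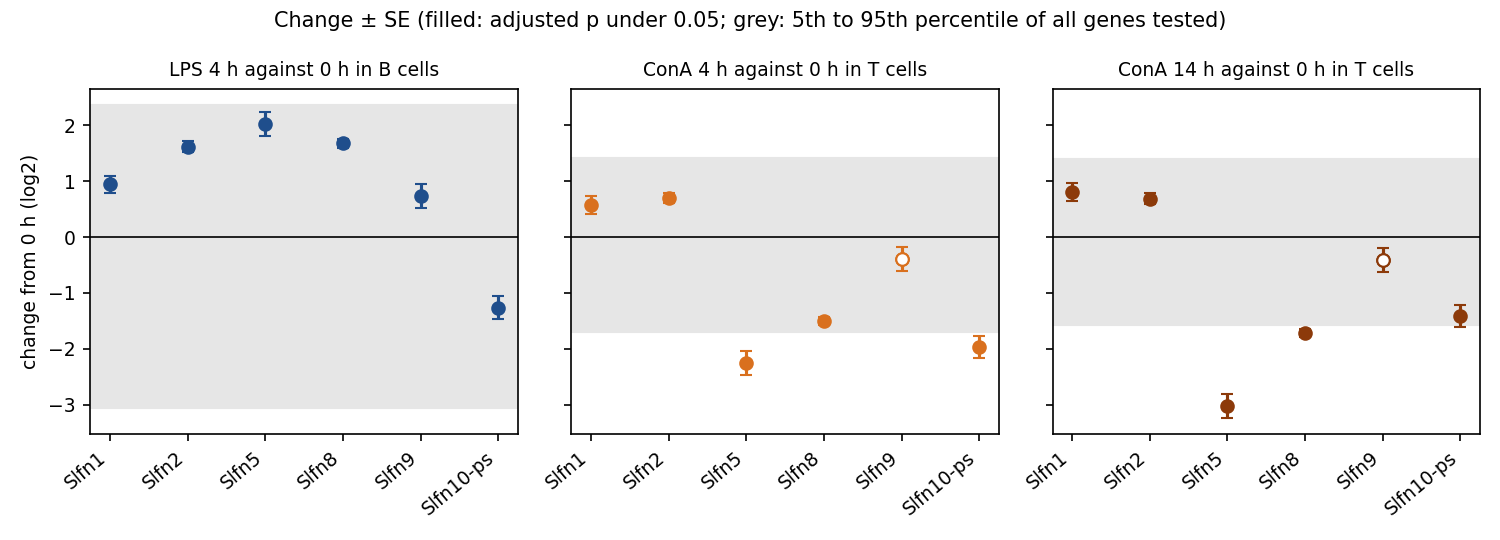
Change from 0 h on the log2 scale (vertical axis) with its standard error for the 4 members tested, Slfn9 and Slfn10-ps (horizontal axis) under LPS at 4 h and ConA at 4 h and 14 h; filled points passed an adjusted p of 0.05, and grey spans the 5th to the 95th percentile of all genes. In B cells all but Slfn10-ps are above 0, and all lie within the grey band, which runs from -3.065 to 2.366. In T cells Slfn5 at both times, Slfn10-ps at 4 h and Slfn8 at 14 h lie below the grey band (its lower edge is -1.71 at 4 h and -1.58 at 14 h).

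At rest, Slfn1, Slfn2 and Slfn8 were lower in B than in T cells, and Slfn5 was not called. The 3 lower members stand against 51.1% of all genes called lower in B cells, where the median over all genes was -0.27. This median depended on the scaling, from -0.37 with array medians set equal to -0.13 with cyclic loess, and relative to it Slfn2 at -0.75 and Slfn8 at -1.02 stood lower by less than the raw values. After 4 h of stimulation, Slfn5 and Slfn8 were called higher in B cells, against 27.9% of all genes, and Slfn1 was called lower, against 50.1%.

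The 4 h responses of B and T cells differed for Slfn2, Slfn5 and Slfn8. The B minus T difference in response was 4.28 ± 0.30 for Slfn5 (limma adjusted p = 2.5e-08), 3.18 ± 0.10 for Slfn8 (adjusted p = 1.06e-11) and 0.92 ± 0.14 for Slfn2 (adjusted p = 3.93e-05). These 3 of the 4 members tested were called higher in this comparison, against 31.3% of all genes. Among all genes, 0.475% had a difference at least as large as Slfn5 and 1.38% as large as Slfn8. For Slfn1 the difference was 0.37, with a 95% interval of -0.11 to 0.86 (adjusted p = 0.161), and it was 0.57 (adjusted p = 0.0153) without B 0 h replicate 2, the resting B array with the highest Slfn1 signal. Slfn9 differed by 1.12 (adjusted p = 0.005). Slfn10-ps differed by 0.71 (adjusted p = 0.0396). This call was lost without B 0 h replicate 1 or 2, B LPS 4 h replicate 1 or 2, T 0 h replicate 1 or 3, or T ConA 4 h replicate 1, with values of 0.54 to 0.74, and with no filter on low values (adjusted p = 0.116).

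Opposite responses, in either direction, were called for a minority of all genes. Lower with LPS in B cells and higher with 4 h of ConA in T cells was found for 379 of 9045 genes (4.19%). Being called higher with LPS in B cells and lower with 4 h of ConA in T cells was found for 292 of 9045 genes (3.23%), among them Slfn5 and Slfn8, and 34 genes (0.376%) did so with at least a 2-fold change on each side, again with both. Of the 26 interferon-stimulated genes tested, 14 were called higher with LPS and lower with ConA. Of these, 8 did so at 2-fold or more: Cmpk2, Ddx58, Dhx58, Ifit1, Ifit2, Ifit3, Mx1 and Oas1a. Gbp3 showed the reverse. By its probe set with the largest standard deviation, Ddx58 had an LPS change of -0.31 (adjusted p = 0.232), so its pattern rests on the brightest one. Slfn1 and Slfn2 were in the larger class called higher in both lineages, with 2186 genes (24.2%). Slfn1 counts there only through its level in T cells, as its B cell means were 2.43 and 3.37. Its rise with ConA was not called without the T arrays of weak 5' spike-in signal. The pattern was picked out after the values were seen and carries no test of its own.

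**Figure D4:**
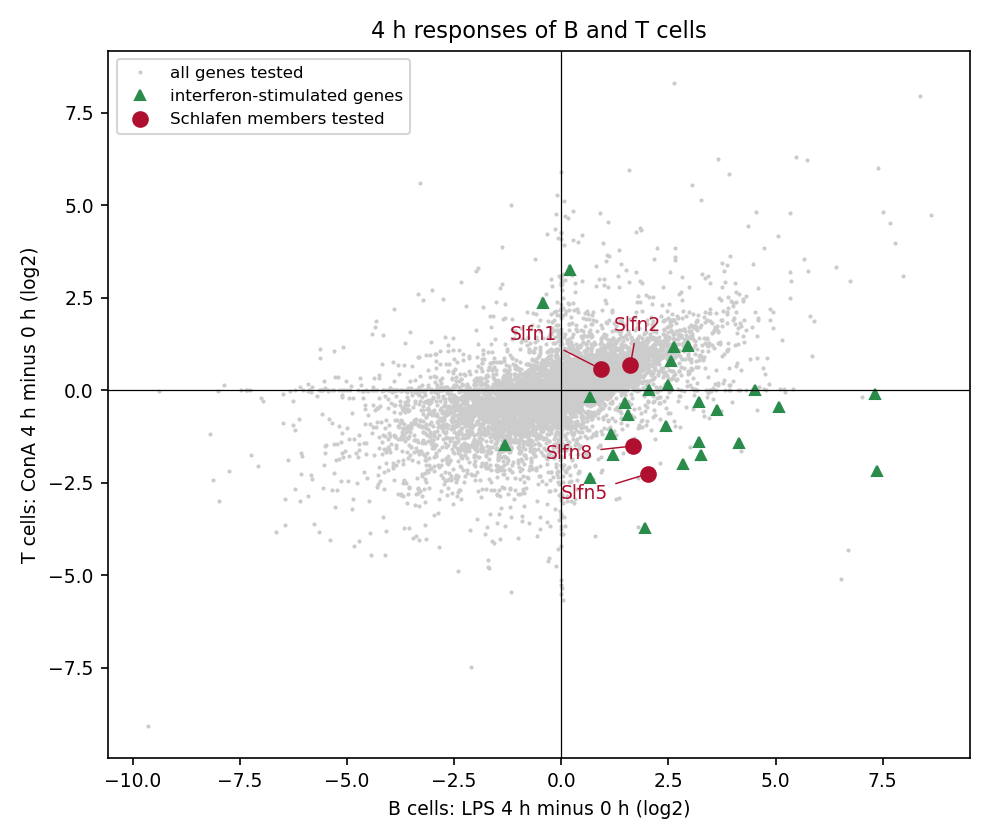
Log2 change with ConA at 4 h in T cells (vertical axis) against log2 change with LPS at 4 h in B cells (horizontal axis) for 9045 genes (grey), 26 interferon-stimulated genes (green triangles) and the 4 Schlafen members tested (red circles). Slfn5 and Slfn8 lie in the lower right quadrant with 14 called interferon-stimulated genes, and Slfn1 and Slfn2 lie in the upper right. The B cell change of Slfn1 is between levels near the floor.

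The genes most like each member over the 15 arrays were named from 5671 genes with a clear level and range. Slfn1 was closest to A430093F15Rik (r = 0.997), Vgll4 (0.996) and the costimulatory receptor gene Cd28 (0.996). Slfn2 was closest to Top1mt, a mitochondrial topoisomerase gene, Mphosph10 and Nop58, both of ribosomal RNA processing, each with r of 0.986 to 0.987. Slfn5 was closest to Ddx58, the gene of the viral RNA sensor RIG-I (0.981), the deadenylase gene Cnot6l (0.973) and the interferon-inducible gene Ifi213 (0.965), and Slfn8 to Sp110 (0.972), Ifi213 (0.950) and Rnf213 (0.947). These are Pearson correlations over arrays that share the 5 groups, given as descriptions.

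Genes of quiescence, listed because Slfn1 and Slfn2 are tied to it, fell in both lineages while Slfn1 and Slfn2 rose. Of 19 tested, 15 fell and 1 rose with LPS (median -1.36), 15 fell and none rose at 4 h of ConA (median -0.84), and 16 fell and none rose at 14 h (median -0.98). Of all genes, 42.3% were called lower with LPS, 32.5% at 4 h of ConA and 31.9% at 14 h. S1pr1, the receptor gene for lymphocyte exit from lymphoid organs, had changes of -8.20 with LPS and -1.19 at 4 h of ConA. Mxd4, a Myc antagonist gene, fell by 6.06 with LPS and fell by 2.26 at 4 h of ConA. Rbl2, a pocket protein gene that restrains the cell cycle, had changes of -4.01 and -1.17. Pik3ip1, a gene of a PI3-kinase inhibitor, and Txnip, of a thioredoxin-binding protein, had the largest changes of the list at 4 h of ConA, -2.64 and -2.30. The exception with LPS was Il7r, the interleukin 7 receptor gene, which rose by 3.02 in B cells and fell by 1.52 in T cells at 4 h. Of 5 tested genes of transfer RNA cleavage and protection, 3 rose and 2 fell with LPS, 3 rose and 1 fell at 4 h of ConA, and 3 rose and none fell at 14 h, against 37.6%, 33.4% and 36.6% of all genes called higher. Elac2, a transfer RNA 3' processing gene, rose by 2.67 with LPS and by 0.94 at 4 h, and Nsun2, a transfer RNA methyltransferase gene, rose by 2.45 and by 1.36.

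Around the cluster, the flanking genes differed in their courses. Of the 5 protein-coding genes on each side, 9 were on the array and 4 were tested. Nle1, a ribosome assembly gene, rose with LPS by 3.66 (adjusted p = 9.38e-11) and with ConA at 4 h by 1.59 (adjusted p = 1.81e-06). Rad51d, a DNA repair gene, fell by 0.90 with LPS (adjusted p = 0.000407), with -0.34 at 4 h of ConA (adjusted p = 0.112). Rffl and Ap2b1 were not called in either 4 h response.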

How the data were processed

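The deposited log2 signals of 45101 probe sets on 15 arrays come from GCRMA, which corrects background and scales arrays to each other, per the submitters' processing notes; no version is named there. Per the labels' protocols, 100 ng of RNA was labelled per sample, so a change in RNA per cell is not visible. Gene names are those of the platform annotation; of 34958 with 1 gene symbol, 34754 matched RefSeq by Entrez number and 0 symbols changed, and 932 with several genes and 9211 with none were left out, with 64 controls. The brightest probe set stood for a gene, and the 9045 genes with a highest group mean of at least 5 were tested. The model, in limma 3.58.1 (R 4.3.3), gave each group its own mean over all arrays (10 residual degrees of freedom), with Benjamini-Hochberg adjustment over all genes tested and calls at an adjusted p under 0.05. The number of arrays limits the precision. Errors of changes are standard errors of this fit. A level counts as near the floor where the group mean is under 3. The code was checked on simulated data.

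Promoters came from RefSeq tables for GRCm38.p6; Slfn10-ps was not among them. The members and the gene lists were chosen with earlier results of these data known. Named genes were the members, up to 4 called genes per list with the largest changes, genes that moved against their list, the 3 most like genes per member (highest group mean of at least 7, range of at least 1) and the 5 protein-coding neighbours on each side; Dhx58 and other genes outside this rule were named after their values were seen. Alternatives changed the normalization, the filter, the probe set, the variance prior, a replicate block and the samples in the fit.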

Additional observations from a re-analysis of the deposited data

Results flagged for a closer look

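For 5 Schlafen genes the response to LPS in B cells differed from the response to 4 h of ConA in T cells by a test of the difference itself (limma interaction, adjusted over 9045 genes). They were 3 of the 4 members tested and the 2 relatives tested. All were called higher, against 31.3% of all genes, and 5982 of the 9045 genes were called in either direction. Slfn5 differed by 4.28 (adjusted p = 2.5e-08), with a B response of 2.02 and a T response of -2.26. Slfn8 differed by 3.18 (adjusted p = 1.06e-11), with 1.67 and -1.51. Slfn9 differed by 1.12 (adjusted p = 0.005), with 0.73 and -0.40. Slfn2 differed by 0.92 (adjusted p = 3.93e-05), with 1.62 and 0.70, both upward. Slfn10-ps differed by 0.71 (adjusted p = 0.0396), with -1.26 and -1.97, both downward; this call was lost in 10 of 27 settings, among them the replicate block (adjusted p = 0.0566) and both T arrays of weak 5' spike-in signal left out (adjusted p = 0.0981). Cell type and stimulus cannot be told apart in these differences.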

How the results depend on the processing

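Over 26 to 28 alternatives per comparison, Slfn2, Slfn5 and Slfn8 kept their direction and their calls in the responses to LPS, to ConA at 4 h and at 14 h, and in the interaction, and Slfn1 did so with LPS and at 14 h of ConA. Lowest to highest, the LPS response was 1.94 to 2.42 for Slfn5, 1.55 to 1.72 for Slfn8 and 1.49 to 1.71 for Slfn2; the 4 h ConA response was -2.41 to -1.02, -1.57 to -1.46 and 0.61 to 0.75. The count of members called higher at 4 h of ConA was 1 rather than 2 without both arrays of weak 5' spike-in signal. From 4 h to 14 h of ConA the 2 calls became 1 under quantile normalization, the mean of probe sets, both weak arrays left out, and a filter on the higher mean of the compared groups (chosen after seeing the data), and 0 with only the groups compared; leaving out 1 array at a time gave 1 to 2. By its probe set with the largest standard deviation, Ddx58 with LPS was -0.31 against 1.20. The other changes of sign were of uncalled values: Irf3 in the interaction by its probe set with the largest standard deviation (0.673), Oasl1 at 14 h under quantile normalization (0.069), Slfn9 from 4 h to 14 h under quantile normalization (0.13), cyclic loess (0.033) and both weak arrays left out (0.076), and, leaving out 1 array at a time, Slfn9 (-0.097 to 0.076) and Slfn2 (-0.065 to 0.059) from 4 h to 14 h and Irf9 at 4 h (-0.051 to 0.21). No pairing of arrays by replicate number was seen: of 30 same-numbered pairs 3 had deviations correlated over 0.1, and 2 of 15 arrays correlated best with an array of their own number. With 3 arrays per group, this check cannot exclude pairing. With the number as a block, 7162 genes were called with LPS and 5889 at 4 h of ConA, 4 members each, and of the Schlafen genes only Slfn10-ps lost calls (interaction, adjusted p = 0.0566; 4 h to 14 h, adjusted p = 0.05). Signals at the floor limit Slfn3, Slfn4, Slfn1 in B cells and Slfn5 in T cells at 14 h.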
